A study of Mus musculus with 10 samples.

Results

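Endothelial cells of a mouse glioma with a deleted Sox7 gene were compared with control glioma endothelium in 4 of the series' 10 libraries, those whose titles name Sox7. They form 2 sets, each of 1 Sox7 control library and 1 Sox7-deficient library, so that 2 libraries stood against 2. The other 6 libraries, 3 Sox17 control and 3 Sox17-deficient, entered the fit to estimate the spread and served for 1 comparison. Per the series' design text, glioma cells were injected into the brains of mice on a congenic B6 background, and the labels give the strain as C57BL/6. To delete Sox7 in endothelium, mice with floxed alleles (Sox7 fl/fl) were bred with the Cdh5(BAC)-CreERT2 line, in which the promoter of the VE-cadherin gene drives a tamoxifen-activated recombinase in endothelial cells. The design text gives tamoxifen, 20 mg/kg into the peritoneum, for the experimental mice. Neither the genotype of the controls beyond "Sox7 control" nor their tamoxifen treatment is given, so an effect of tamoxifen or of the recombinase cannot be told apart from that of the deletion. The age of the mice, the method of purification and whether animals were pooled are not given either. The labels do not say that libraries came from separate animals, so p-values measure only how far these samples spread, and that spread may be technical.

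SOX7 belongs, with SOX17 and SOX18, to the SoxF group of transcription factors, which bind short DNA motifs around ACAAT through an HMG box. Endothelial cells express all 3, and the group acts in the specification of blood and lymphatic vessels, in arterial identity and in vessel sprouting. A member can be partly replaced by another, which makes the levels of Sox17 and Sox18 a part of any account of Sox7 loss.

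RNA was read by short tags from the 3′ ends of transcripts, and the deposited values were counts per gene symbol. CPM below is the count as a rate per 1e6 counts of the scaled library size, and where a pair of values is given for a set, the control comes first. A set difference is deficient minus control within a set on the log2(CPM + 1) scale, 1 library against 1 with no test. Total counts ran from 6781972 to 9699934 over the 4 libraries, so that 3 counts, the limit a count of 0 allows, came to at most 0.442 CPM of the unscaled total in the shallowest. Intervals of this kind cover counting error only. The ribosomal RNA precursor Rn45s took 22.2% and 28.8% of counts in set 1 and 4.64% and 7.03% in set 2, control first. Of the 13040 genes tested, 3.46% (control) and 4.19% (deficient) had no count in set 1, against 17.3% and 20.4% in set 2. A count of 0 in the deficient library beside 100 or more in its control was found for 1 gene in set 1 and 430 genes in set 2. The reverse, 0 in the control and 100 or more in the deficient library, was found for 5 genes in set 1 and 209 in set 2. Whether this drop-out of whole genes in set 2 sets any difference below was not tested.

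The endothelial label was met in all 4 libraries, and 1 of them also held much macrophage RNA. The 8 endothelial markers (Pecam1, Cdh5, Kdr, Tek, Tie1, Erg, Cldn5 and Emcn), none of them at 0 in any library, summed to 4413 and 2585 CPM in control and deficient 1 and to 4167 and 4078 CPM in set 2. The 9 markers of macrophages and microglia summed to 702 and 12474 CPM in control and deficient 1, and to 211 and 90.0 in set 2. Deficient 1 stood apart from the other libraries in these genes, while in set 2 the deficient library had the lower sum and 1 of the 9 markers, Lyz2, at 0. The 4 pericyte markers summed to between 247 and 502 CPM. B cell markers (2 genes) were at 0 in all 4 libraries, and fibroblast markers (3 genes) summed to at most 13.3 CPM. Fewer cells of a type and less RNA per cell cannot be told apart in bulk samples. Most results below are therefore given for each set as well as for both.

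**Figure D1:**
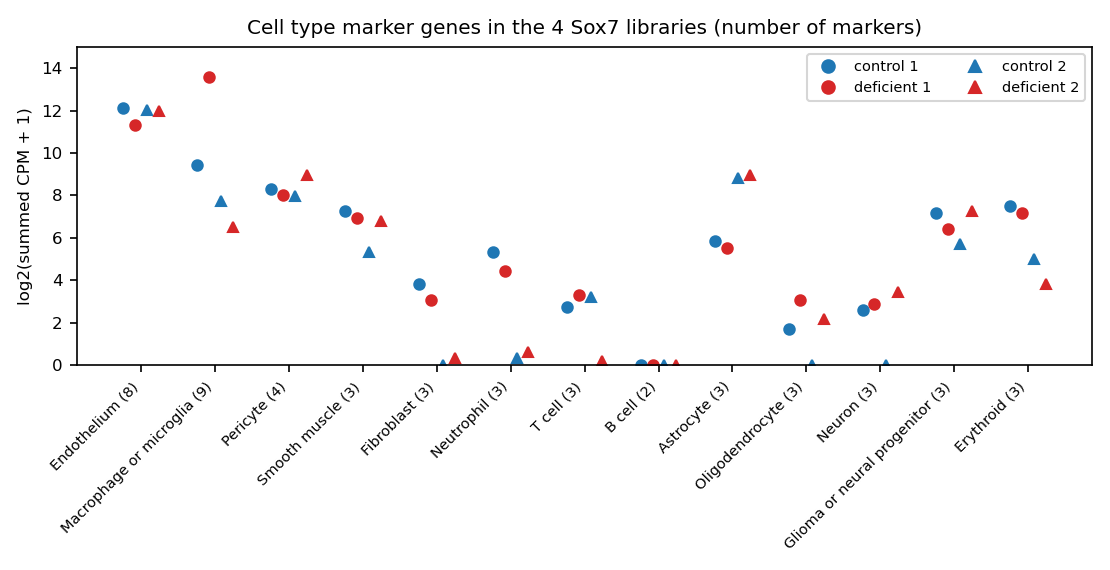
Summed level of marker genes of 13 cell types, as log2(summed CPM + 1), in each of the 4 Sox7 libraries; 1 point is 1 library. Macrophage markers reached 12474 CPM in deficient 1 against 90.0 to 702 CPM in the others, while endothelial markers lay between 2585 and 4413 CPM.

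The deleted gene was checked first. Sox7 (chromosome 14, 63943673 to 63950732, GRCm38, plus strand) had 193 counts in control 1 and 4 in deficient 1, and 64 in control 2 and 5 in deficient 2. Set 1 thus went from 23.1 to 0.577 CPM and set 2 from 5.90 to 0.664 CPM, and the 2 groups did not overlap. Its log2 fold change was −4.52 ± 1.04 (SE, 2 against 2 libraries), with an adjusted p of 1 in edgeR's quasi-likelihood test. The labels do not say which part of the gene is floxed, so it is not known here whether the 3′ tags lie inside the deleted part.

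The other SoxF genes did not pass the test either. Sox17, which acts in arterial endothelium, read 116 and 58.9 CPM in control and deficient 1 and 268 and 290 CPM in set 2. It was lower in set 1 and slightly higher in set 2, and its log2 fold change was −0.14 ± 0.82 (SE). Sox18 stood at 68.6 and 59.6 CPM in control and deficient 1, and at 618 and 309 CPM in set 2. Both deficient libraries were below their own controls, but control 1 and deficient 1 were both far below set 2, so the groups overlapped. The log2 fold change of Sox18 was −0.90 ± 1.12 (SE). Without control 2 the log2 fold changes turned positive, to 0.59 for Sox17 and 1.42 for Sox18.

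Across all genes, no difference passed the test. Of 13040 genes, 0 (0.0%) had an adjusted p below 0.05 in edgeR, and the smallest adjusted p was 1. The spread between libraries in this fit was large, with edgeR's common biological coefficient of variation at 0.989. The deleted gene Sox7 was not called either, so 0 calls do not show that genes were unchanged. At an unadjusted p below 0.05 there were 195 genes (1.5%), 111 of them higher (0.851%) and 84 lower (0.644%), where 652 would be reached with no difference at all. With the set number as a block, 1 gene (0.00767%) was called, Ms4a6c, a membrane protein of macrophages, at an adjusted p of 0.0247. DESeq2 called 4 genes (0.0238%), DESeq2 with the block 17 (0.165%), and limma-voom 0. Without the filter on low counts edgeR called 58 (0.338%), of which 57 were higher. These include Arg1, Ccl8, C1qa and C1qc, and the 1 lower gene was Sox7. Arg1 had 258 and 246 counts in the controls, 12493 in deficient 1 and 0 in deficient 2. Ccl8 had 891 and 513 counts in the controls, 28566 in deficient 1 and 0 in deficient 2. C1qa and C1qc were likewise high in deficient 1 and lower in deficient 2 than in either control. Leaving out deficient 1 gave 14 calls (0.1%), all lower, leaving out control 1 gave 3 calls (0.0212%), all higher, and leaving out control 2 or deficient 2 gave 0.

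The 2 sets shared little of their differences. A set difference of at least 1, was found for 1944 higher (14.9%) and 1381 lower genes (10.6%) in set 1, and for 2514 higher (19.3%) and 2680 lower genes (20.6%) in set 2. In both sets at once, 405 genes (3.11%) were higher and 319 (2.45%) lower by at least 1, while 760 (5.83%) differed by that much in opposite directions. As a description across genes, which are not independent replicates, the correlation of set 1 with set 2 differences was −0.01 over 13040 genes. It was −0.12 over the 3633 genes with a mean of at least 50 CPM, where counting error is small. At that level 36 genes were higher and 9 lower in both sets, and 77 went in opposite directions.

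**Figure D2:**
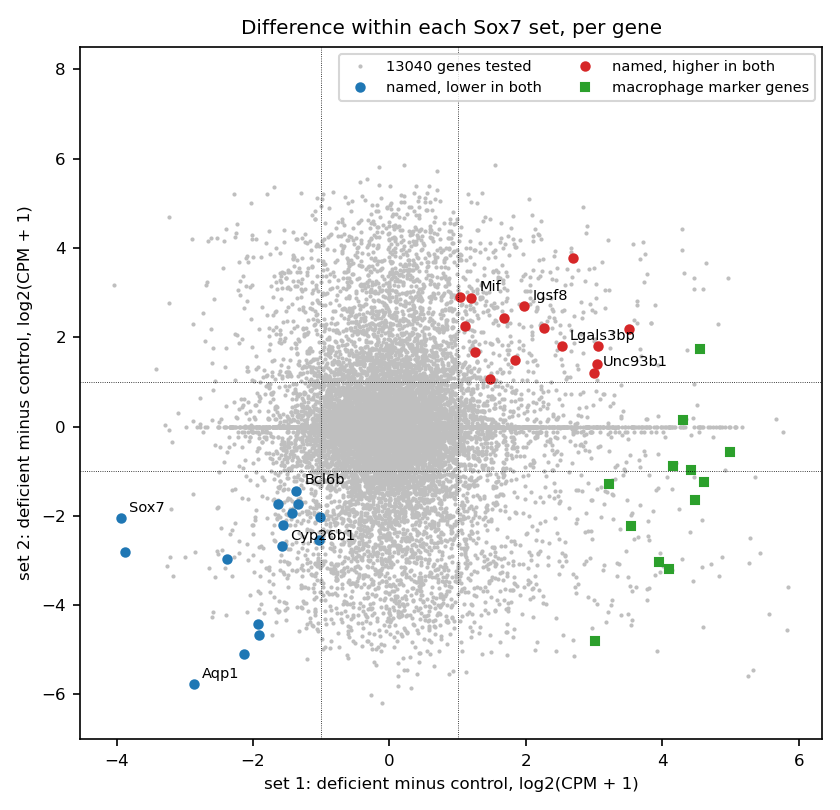
Difference between the deficient and the control library in set 1 (x axis) and set 2 (y axis), both on the log2(CPM + 1) scale; 1 point is 1 gene, and dotted lines mark a difference of 1 in either direction. The 30 named genes lie past 1 in both sets by the rule that chose them, and macrophage markers lie far to the right at set 2 differences on either side of 0.

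The genes described next are the 15 lower and the 15 higher ones with the smallest p among genes past 1 in both sets. The rule chose them for their difference, so the values are a description, and none of them passed the test (adjusted p of 1 in edgeR for each). All 15 lower genes and 14 of the 15 higher ones had groups that did not overlap, against 12.8% lower and 12.7% higher over all genes tested, which the rule itself brings about.

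Among the lower genes, 4 were above 50 CPM on average over the 4 libraries. Cyp26b1 (chromosome 6, 84571414 to 84593908, GRCm38, minus strand), the enzyme that clears retinoic acid from cells, read 82.2 CPM in control 1 against 26.8 in deficient 1, and 202 CPM in control 2 against 30.7 in deficient 2. The controls differed from each other, whereas both deficient libraries stood close together and below both controls. Its log2 fold change was −2.31 ± 0.68 (SE). Bcl6b (chromosome 11, 70224128 to 70229798), a transcriptional repressor, went from 225 to 86.7 CPM in set 1 and from 178 to 65.2 CPM in set 2. On this CPM scale the sets matched each other closely, with set differences of −1.36 and −1.44 and a log2 fold change of −1.41 ± 0.48 (SE). Scaled to the pan-endothelial genes, as described below, the set differences of Bcl6b were −0.50 and −1.34. Kcnj2 (chromosome 11, 111066164 to 111076821), an inward-rectifying potassium channel, stood at 63.1 and 30.6 CPM in set 1 and at 117 and 28.1 CPM in set 2. Its log2 fold change was −1.62 ± 0.56 (SE), and the larger of its set differences was that of set 2. Wnt5a (chromosome 14, 28504750 to 28527448), a secreted Wnt ligand that acts mostly outside the beta-catenin branch, was at 68.2 and 26.3 CPM in set 1 and at 133 and 39.7 CPM in set 2. That gave a log2 fold change of −1.61 ± 0.57 (SE), again with both controls above both deficient libraries.

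Other secreted and surface proteins were among the lower genes. Cxcl1, a chemokine that attracts neutrophils, had 83.1 and 27.4 CPM in set 1 and 66.3 and 13.7 CPM in set 2. Mmp15, a membrane-bound matrix metalloprotease, had 70.6 and 22.1 CPM in set 1 and 52.8 and 15.1 CPM in set 2. For both genes the controls lay near each other and the deficient libraries near each other. Aqp1, a water channel, had 228 and 20 counts in set 1 and 580 and 0 in set 2. Bace2, an aspartyl protease of the secretory pathway, had 88 and 14 counts, then 348 and 4. In both genes the control of set 2 was the highest library and its deficient partner the lowest. Whether the drop-out of genes in set 2 has a part in these values was not tested.

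The remaining lower genes had low counts or roles less tied to vessels. Mid2, a ubiquitin ligase that binds microtubules, had 114 and 65 counts in the controls and 0 in both deficient libraries, which makes it at least 44.9-fold lower against 3 counts over the deficient group. Xk, a membrane protein of red cells and other tissues, had 35 and 74 counts in the controls and 0 in both deficient libraries, at least 27.4-fold lower on the same footing. Both bounds cover counting error only and not the spread between libraries. Mid2 is the 1 gene of set 1 counted above at 0 in the deficient library beside 100 or more counts in its control. Ccdc85a, Trmt10c (a mitochondrial tRNA methyltransferase), Nhsl1 and Spef1 (a microtubule-binding protein of cilia) had log2 fold changes of −4.31, −5.34, −1.85 and −1.75. In all 4 the groups did not overlap.

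The start regions of these genes were searched for the core that SoxF proteins bind. RefSeq's promoter table (GRCm38.p6, 250 bases before to 50 after the start) held 11 of the 15 lower and 11 of the 15 higher genes. The motif ACAAT, or ATTGT on the other strand, was in 2 of the 11 lower genes (Spef1 and Nhsl1) and in 1 of the 11 higher genes (Prdx5), against 31.0% of all 32851 promoters in the table. The longer AACAAT, or ATTGTT, which contains the first motif, was in the same 2 lower genes and no higher gene, against 10.7% of all promoters. A match is a description of these letters and no evidence of binding, and a window without it says nothing of sites elsewhere. The promoters printed here are that of Cyp26b1, the lower gene with the smallest p after Sox7, which holds no match, and those of the 2 lower genes that hold one. Sequences run 5′ to 3′ on the gene's strand, with ACAAT or ATTGT in capitals.
Cyp26b1, chr6:84593761-84594060, minus strand: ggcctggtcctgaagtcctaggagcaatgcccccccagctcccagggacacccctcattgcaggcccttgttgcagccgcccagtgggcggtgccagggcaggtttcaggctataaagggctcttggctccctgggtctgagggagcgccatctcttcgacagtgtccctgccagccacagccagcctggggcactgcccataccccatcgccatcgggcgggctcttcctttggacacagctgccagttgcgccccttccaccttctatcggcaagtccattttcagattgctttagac
Spef1, chr2:131174761-131175060, minus strand: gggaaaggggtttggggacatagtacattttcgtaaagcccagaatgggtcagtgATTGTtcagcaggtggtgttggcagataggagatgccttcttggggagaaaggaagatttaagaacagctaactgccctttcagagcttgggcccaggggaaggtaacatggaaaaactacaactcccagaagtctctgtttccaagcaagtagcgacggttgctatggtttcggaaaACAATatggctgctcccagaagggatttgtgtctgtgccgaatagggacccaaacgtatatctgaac
Nhsl1, chr10:18407425-18407724, plus strand: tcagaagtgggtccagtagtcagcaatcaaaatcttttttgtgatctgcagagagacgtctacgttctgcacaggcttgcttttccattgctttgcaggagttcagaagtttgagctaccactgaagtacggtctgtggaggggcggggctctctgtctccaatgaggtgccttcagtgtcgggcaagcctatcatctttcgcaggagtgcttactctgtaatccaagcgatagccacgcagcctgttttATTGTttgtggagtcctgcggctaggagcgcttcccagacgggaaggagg
Spef1 holds 2 matches and this Nhsl1 promoter 1. The table's other Nhsl1 promoter holds none.

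**Figure D3:**
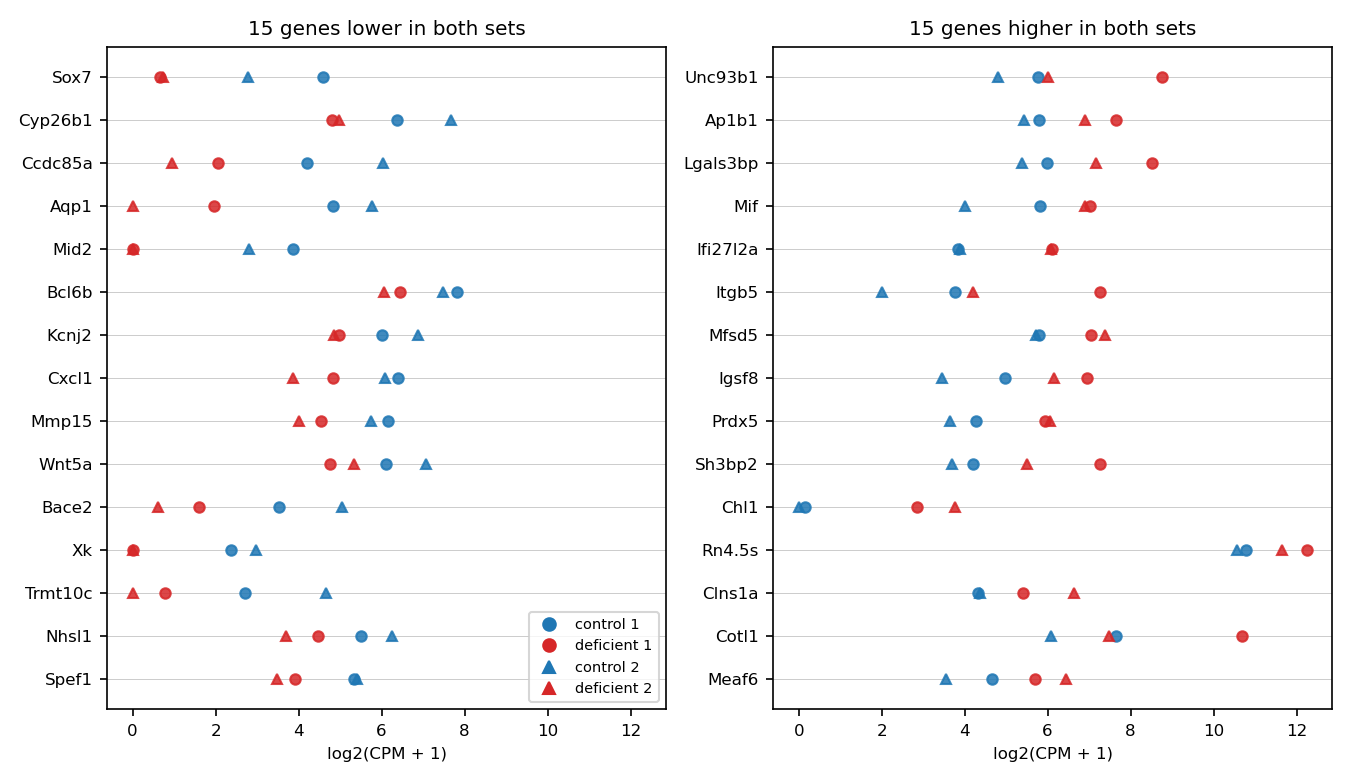
Level of the 15 lower and 15 higher genes in each Sox7 library as log2(CPM + 1); circles are set 1, triangles set 2, blue control and red deficient. In the left panel both red points lie left of both blue points in every gene, and in the right panel they lie to the right in every gene but Cotl1.

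Among the higher genes, several are known from immune and other cells as well as endothelium. Unc93b1, a chaperone of endosomal Toll-like receptors, read 53.4 and 435 CPM in control and deficient 1 and 26.9 and 63.6 CPM in set 2, a log2 fold change of 2.63 ± 0.73 (SE). Lgals3bp, a secreted glycoprotein that binds galectins, stood at 62.6 and 365 CPM in set 1 and at 40.6 and 143 CPM in set 2 (log2 fold change 2.30 ± 0.72, SE). In both genes deficient 1 was by far the highest library. Sh3bp2, an adaptor of signalling in blood cells, went from 17.5 to 153 CPM and from 11.9 to 44.2 CPM. Cotl1, which binds actin filaments, went from 199 to 1648 CPM in set 1 and from 66.6 to 179 CPM in set 2. It is the 1 higher gene whose groups overlapped, deficient 2 lying below control 1. Itgb5, an integrin subunit, had 12.6 and 154 CPM in set 1 and 3.04 and 17.3 CPM in set 2. These genes were highest in the library with the macrophage RNA, and the part of that RNA in their set 1 differences was not tested. In set 2, where all 5 were higher too, the summed macrophage markers were lower in the deficient library (90.0 against 211 CPM).

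Other higher genes differed by as much or more in set 2. Mif, a secreted cytokine (chromosome 10, 75859353 to 75860240), had 55.6 and 128 CPM in set 1 and 15.2 and 119 CPM in set 2, with both deficient libraries close together. Its log2 fold change was 1.81 ± 0.60 (SE). Ifi27l2a, an interferon-induced gene, was nearly the same in both sets, at 13.3 and 67.5 CPM in set 1 and 13.7 and 67.2 CPM in set 2. Mfsd5, a membrane transport protein, read 54.1 and 130 CPM in set 1 and 51.5 and 167 CPM in set 2. Igsf8, an immunoglobulin-type partner of tetraspanins, had 30.4 and 123 CPM in set 1 and 9.96 and 69.7 CPM in set 2. Prdx5, a peroxide-reducing enzyme, stood at 18.2 and 60.2 CPM in set 1 and at 11.4 and 65.8 CPM in set 2. In these 5 genes the deficient libraries lay above both controls in either set.

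The remaining higher genes were Ap1b1, Chl1, Rn4.5s, Clns1a and Meaf6. Ap1b1, a subunit of a clathrin adaptor, had 54.4 and 198 CPM in set 1 and 41.8 and 119 CPM in set 2. Chl1, a cell adhesion molecule known from neurons, had 1 and 43 counts in set 1 and 0 and 95 in set 2. Neuronal markers (3 genes) summed to 5.15 and 6.49 CPM in control and deficient 1 and to 0 and 10.1 CPM in set 2, and their part in the Chl1 values was not tested. Rn4.5s, a small noncoding RNA, was the most abundant of the 15 at 1747 and 4840 CPM in set 1 and 1521 and 3205 CPM in set 2.

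After the values were seen, the genes lower in both sets at a mean of 50 CPM or more were looked at as a group, since counting error matters least there. Beside Cyp26b1, Bcl6b, Kcnj2 and Wnt5a they are Cdc42ep3, Msi2, Xpo7, Gpr182 and Rnd1. Rnd1, which loosens the actin skeleton, had 525 and 217 CPM in set 1 and 210 and 80.7 CPM in set 2, so that its groups overlapped. Cdc42ep3, an effector of the GTPase CDC42, had 93.6 and 41.7 CPM in set 1 and 237 and 88.9 CPM in set 2. Msi2, an RNA-binding protein, went from 136 to 64.9 CPM and from 171 to 69.8 CPM. Gpr182, a receptor of endothelium that takes up chemokines, stood at 41.5 and 20.2 CPM in set 1 and 174 and 70.6 CPM in set 2, and its groups overlapped as well.

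Scaling mattered for these counts. The pan-endothelial genes (27 without Sox genes of the SoxF group) were on average 0.86 lower in deficient 1 than in control 1 and 0.10 lower in set 2, on the log2(CPM + 1) scale. When each library was scaled to these genes, 1291 genes were higher and 60 lower by at least 1 in both sets. All 15 named lower genes were still lower in both sets, 7 of them by at least 1, and all 15 higher ones stayed past 1. The 7 were Sox7, Aqp1, Ccdc85a, Mid2, Bace2, Xk and Trmt10c. Cyp26b1, Bcl6b, Kcnj2 and Wnt5a, the named lower genes above 50 CPM, were not among them. In set 1 Cyp26b1 then stood at −0.72, Wnt5a at −0.48 and Kcnj2 at −0.16. Their set 2 differences were −2.58, −1.62 and −1.92. Under this scaling the median of all genes was 0.89 in set 1 and 0.10 in set 2. Every list median given below under this scaling is to be read beside those values.

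Genes of endothelial identity were mostly a little lower, and more so in set 1, where macrophage RNA was high. Of 28 pan-endothelial genes, 3 had a log2 fold change above 0 and 25 below, with a median of −0.45, against 51.9% above, 47.5% below and a median of 0.04 over all genes. The median was −0.88 in set 1 and −0.15 in set 2, and relative to the pan-endothelial mean, −0.02 and −0.06. The last 2 values lie near 0 by construction, since 27 of the 28 genes set that mean. Over both sets the median log2 fold change was −0.23 without deficient 1 and −0.85 without deficient 2. No member passed the test, and 11 of the 28 lay lower without overlap, against 12.8% of all genes. Egfl7, a secreted vessel protein, read 5402 and 3477 CPM in set 1 and 4413 and 3999 CPM in set 2. Esam, an adhesion molecule of endothelial junctions, had 3234 and 1859 CPM in set 1 and 3281 and 2773 CPM in set 2. Flt1, a VEGF receptor, was lower in set 1 (3199 and 1725 CPM) and higher in set 2 (1582 and 2289 CPM). Vwf, the von Willebrand factor, differed alike in both sets, at 273 and 139 CPM and at 674 and 344 CPM. Clec14a, a lectin of vessel walls, had 326 and 210 CPM and then 791 and 443 CPM.

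Transcription factors of endothelium differed less between the groups. Of 24 tested, 8 lay above 0 and 16 below, with a median of −0.32, and the median was −0.72 in set 1 and 0.00 in set 2. It was −0.07 without control 1 and −0.45 without deficient 2. Scaled to the pan-endothelial genes, the medians were 0.15 and 0.09, against 0.89 and 0.10 over all genes. The sign turned, but the list lay below the median of all genes in set 1 and level with it in set 2. Epas1, a hypoxia-inducible factor, had 1127 and 586 CPM in set 1 and 2184 and 1621 CPM in set 2. Tcf4 had 1629 and 986 CPM in set 1 but 987 and 1055 CPM in set 2, and Klf4, which responds to flow, 1592 and 835 CPM but then 624 and 997 CPM. Gata2 (204 and 109 CPM, 497 and 331 CPM) and Tal1 (44.3 and 30.2 CPM, 72.3 and 22.96 CPM) were lower in both sets.

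Venous genes had medians of similar size in both sets. Of 15 venous and capillary-venous genes, 13 were below 0 and 2 above, with a median of −0.53, and with −0.65 in set 1 and −0.50 in set 2. Scaled to the pan-endothelial genes, set 1 had a median of 0.21 and set 2 of −0.40. Selp, an adhesion receptor for leukocytes on venous endothelium, had 35.8 and 8.52 CPM in set 1 and 11.8 and 2.52 CPM in set 2. Tmem252 read 419 and 259 CPM in set 1 and 461 and 236 CPM in set 2. Lrg1, a secreted glycoprotein linked to vessel growth, read 184 and 135 CPM and then 633 and 397 CPM. In Tmem252 the groups did not overlap, while in Lrg1 the difference between the sets was larger than that between deficient and control.

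Arterial genes differed mostly in set 1, and Notch genes in both sets. Of 18 arterial genes, 13 were below 0 and 5 above, with a median of −0.55, and with −1.11 in set 1 and −0.12 in set 2. The median was −0.21 without control 1 and −1.02 without deficient 2. Unc5b, a netrin receptor of arteries and tip cells, had 411 and 108 CPM in set 1 and 192 and 161 CPM in set 2. Edn1, which encodes the vasoconstrictor endothelin, was lower in both sets (246 and 156 CPM, 390 and 249 CPM), whereas Mgp was lower in set 1 (303 and 203 CPM) and higher in set 2 (320 and 544 CPM). Sema3g had 15.7 and 2.16 CPM in set 1 and 17.6 and 0 CPM in set 2, and Vegfc, a lymphatic growth factor, 18.6 and 3.03 CPM and then 6.64 and 0 CPM. Of 18 Notch pathway genes, 10 were below 0 and 8 above, with a median of −0.35, and with −0.51 and −0.27 in sets 1 and 2, where 12 and 13 of the 18 were lower. Nrarp, a Notch target that dampens the pathway, was at 215 and 136 CPM in set 1 and at 299 and 120 CPM in set 2, without overlap. Hes1, another target, had 936 and 459 CPM in set 1 and 660 and 579 CPM in set 2, and the receptor Notch4 174 and 77.5 CPM and then 219 and 200 CPM. Notch2 (6.11 and 27.3 CPM, 0 and 9.69 CPM) and Dtx1 (0 and 2.31 CPM, 0.184 and 4.65 CPM) were the 2 members higher by at least 1 in both sets, against 3.11% of all genes. With the pan-endothelial scaling the medians of sets 1 and 2 were −0.25 and −0.02 for arterial genes and 0.36 and −0.17 for Notch genes.

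Genes of sprouting and tumour vessels and of the vessel matrix had small differences. Of 23 tip cell and tumour endothelium genes, 19 were below 0 and 4 above, with a median of −0.45 (−0.65 in set 1, −0.15 in set 2, and −0.71 without deficient 2). Of 15 basement membrane genes, 14 were below 0 and 1 above, with a median of −0.44 (−0.72 in set 1, −0.22 in set 2, −0.27 without deficient 1 and −0.68 without deficient 2). Col4a1, a chain of type IV collagen and a member of both lists, read 1253 and 607 CPM in set 1 and 1375 and 836 CPM in set 2, without overlap. Sparc, a matrix glycoprotein, had 5167 and 2942 CPM in set 1 and 3743 and 3215 CPM in set 2. Fn1, fibronectin, was almost level at 2282 and 2021 CPM in set 1 and 2165 and 1911 CPM in set 2. Aplnr, the apelin receptor of sprouting vessels, had 89.4 and 45.8 CPM and then 60.0 and 36.8 CPM. Scaled to the pan-endothelial genes, the medians were 0.21 and −0.06 for the tip cell list and 0.14 and −0.12 for the basement membrane in sets 1 and 2.

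The barrier lists went different ways in the 2 sets. Of 20 blood-brain barrier transporters and efflux pumps, 14 were below 0 and 6 above, with a median of −0.18. All 20 were lower in set 1 (median −0.84), while in set 2 the median was 0.18. Lower without overlap was 1 of the 20, against 12.8% of all genes. Without deficient 1 the median was 0.17. Slc2a1, the glucose transporter of the barrier, was lower in both sets (806 and 545 CPM, 3460 and 1713 CPM). Slc7a5, an amino acid transporter, and Abcb1a, P-glycoprotein, were lower in set 1 only: 3582 and 2162 CPM, then 3216 and 4076 CPM for the first, and 1461 and 700 CPM, then 1623 and 1689 CPM for the second. Slc16a1, a lactate and ketone transporter, had 569 and 240 CPM in set 1 and 185 and 114 CPM in set 2. Of 18 junction genes, 15 were below 0 and 3 above, with a median of −0.41, again from set 1 (−0.72) and not set 2 (0.01), and was −0.16 without deficient 1 and −0.68 without deficient 2. Cldn5, the main claudin of brain vessels, read 1125 and 778 CPM in set 1 and 1275 and 1052 CPM in set 2. Of 9 genes of caveolae, fenestrae and transcytosis, 7 were above 0 and 2 below, with a median of 0.32, of −0.63 in set 1 and 1.22 in set 2, and of −0.45 without deficient 2. Plvap, the diaphragm protein of leaky vessels, had 182 and 75.5 CPM in set 1 and 252 and 252 CPM in set 2. Scaled to the pan-endothelial genes, sets 1 and 2 had medians of 0.03 and 0.27 for the barrier transporters, 0.14 and 0.11 for the junctions, and 0.24 and 1.32 for the caveolar list.

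Flow and clotting genes were mostly lower, and each list held 1 gene with an unadjusted p below 0.05 in edgeR, Kcnj2 and Plat, against 0.644% of all genes lower at that p. Kcnj2 and Cyp1b1 were the 2 of 14 shear-responsive genes lower by at least 1 in both sets (2.45% of all genes), and 11 of the 14 were below 0, with a median of −0.43 (−0.61 in set 1, −0.46 in set 2). Klf6, a flow-responsive factor, had 1484 and 1055 CPM in set 1 and 1046 and 809 CPM in set 2. Of 14 coagulation and fibrinolysis genes, 10 were below 0 and 4 above, with a median of −0.36 (−0.12 in set 1, −0.72 in set 2), which was −0.05 without deficient 2 and −0.63 without deficient 1. Plat, the tissue plasminogen activator of endothelium, read 440 and 191 CPM in set 1 and 556 and 296 CPM in set 2, without overlap. F5, clotting factor V, had 13.4 and 2.60 CPM in set 1 and 11.3 and 1.33 CPM in set 2. Scaled to the pan-endothelial genes, the set medians were 0.26 and −0.36 for the shear list and 0.75 and −0.62 for the clotting list.

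Receptors and targets of BMP and TGF-beta were mostly a little lower, while the retinoic acid pathway around Cyp26b1 went different ways in the 2 sets. Of 18 BMP and TGF-beta genes, 12 were below 0 and 6 above, with a median of −0.28, and with −0.41 in set 1 and −0.15 in set 2. Without deficient 1 the median was −0.083 and without deficient 2 −0.48. Id2, an inhibitor of basic helix-loop-helix factors, was the 1 member higher by at least 1 in both sets (53.2 and 136 CPM, 22.95 and 76.6 CPM), against 3.11% of all genes. Id1 and Id3, of the same family, were lower in set 1 (481 and 306 CPM for Id1, 961 and 482 CPM for Id3) and higher in set 2 (784 and 898 CPM for Id1, 1082 and 1271 CPM for Id3). Of 16 retinoic acid genes 11 were tested, 6 above 0 and 5 below. Their median was 0.33, with −0.69 in set 1 and 0.76 in set 2, and −0.39 without deficient 2. Dhrs3, which reduces retinal to retinol, was the 1 member higher by at least 1 in both sets (8.74 and 31.5 CPM, 7.56 and 25.3 CPM). Cyp26b1 and Rarb, a retinoic acid receptor, were the 2 lower by as much, against 2.45% of all genes. Rarb had few counts, 11 and 0 in set 1 and 15 and 0 in set 2. Scaled to the pan-endothelial genes, the medians of sets 1 and 2 were 0.46 and −0.05 for the BMP and TGF-beta list and 0.18 and 0.86 for the retinoic acid list.

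**Figure D4:**
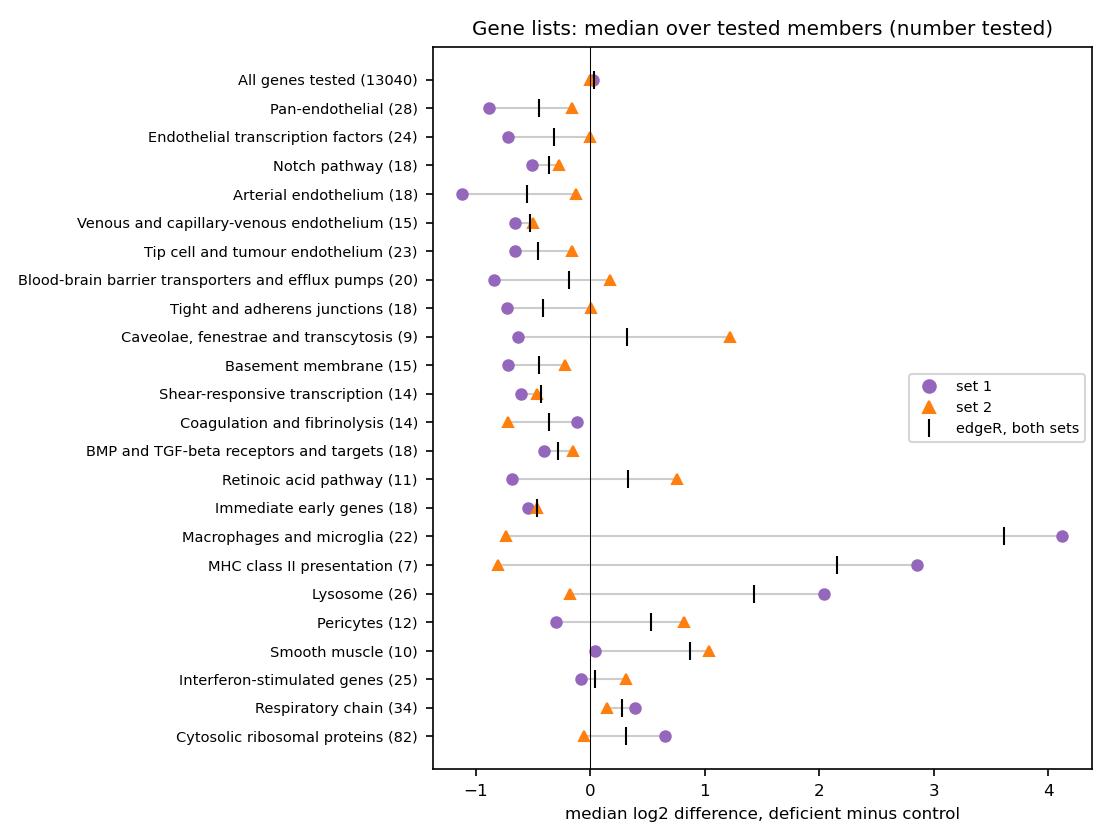
Median log2 difference, deficient minus control, over the tested members of 23 gene lists and of all genes: circles give set 1, triangles set 2 and black ticks edgeR's log2 fold change over both sets. Macrophage genes have medians of 4.12 in set 1 and −0.73 in set 2, while the immediate early and venous lists lie below 0 at close values in both sets.

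Immediate early genes, which cells switch on within minutes of a stimulus or of handling, were among the few lists with close medians in the 2 sets. Of 18, 15 were below 0 and 3 above, with a median of −0.46, and with −0.55 in set 1 and −0.46 in set 2. Lower without overlap were 10 of 18, against 12.8% of all genes. Egr1 had 1744 and 904 CPM in set 1 and 1263 and 693 CPM in set 2. Fosb had 556 and 221 CPM in set 1 and 639 and 374 CPM in set 2. Jun was highest in control 1 (5088 CPM, with 2295 in deficient 1) and had 2928 and 2463 CPM in set 2. The medians relative to the pan-endothelial genes were 0.32 in set 1 and −0.37 in set 2.

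Macrophage genes were higher in set 1 and mostly lower in set 2. All 22 tested of 24 were above 0, with a median of 3.62, but the median was 4.12 in set 1 and −0.73 in set 2, and −2.10 without deficient 1. C1qa, a complement component made by macrophages and microglia, had 512 and 9172 CPM in set 1 and 91.1 and 48.8 CPM in set 2. Ctss, a protease of antigen processing, had 294 and 5043 CPM in set 1 and 151 and 15.7 CPM in set 2. Apoe was higher in both sets (199 and 1158 CPM, 199 and 279 CPM), as were Itgam (14.97 and 189 CPM, 0 and 16.1 CPM) and Ms4a6c. The last had 22.99 and 531 CPM in set 1 and 0.0922 and 8.23 CPM in set 2, from 1 and 62 counts, and without deficient 1 its log2 fold change was −0.52. The 7 tested genes of MHC class II presentation had a median of 2.16, with 2.85 in set 1 and −0.81 in set 2, and −0.50 without deficient 1. Of the 26 lysosomal genes, 23 were above 0 with a median of 1.43, with 2.04 in set 1 and −0.18 in set 2, and −0.16 without deficient 1. Symbols of the H2 family share sequence, so their counts are uncertain. Ctsh, a lysosomal protease, was higher by at least 1 in both sets (76.3 and 175 CPM, 52.4 and 128 CPM).

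Genes of mural cells, which wrap the endothelium, were mostly higher in set 2. Scaled to the pan-endothelial genes, the medians in sets 1 and 2 were 0.57 and 0.92 for pericytes. For smooth muscle they were 0.91 and 1.14. All genes had medians of 0.89 and 0.10 under that scaling. In set 1 the pericyte list thus lay below the median of all genes and the smooth muscle list close to it. The 12 pericyte genes had 9 members above 0 and 3 below, with a median of 0.53, with −0.29 in set 1 and 0.82 in set 2, and −0.17 without deficient 2. Rgs5, the most abundant of them, had 185 and 148 CPM in set 1 and 58.2 and 206 CPM in set 2. Abcc9 and Kcnj8, the channel subunits of pericytes, went the other way and were lower in both sets (32.3 and 13.3 CPM, 36.7 and 9.16 CPM for Abcc9, and 12.8 and 8.52 CPM, 26.1 and 6.50 CPM for Kcnj8). Of 10 smooth muscle genes 9 were above 0, with a median of 0.87, with 0.05 in set 1 and 1.04 in set 2. Acta2, smooth muscle actin, had 121 and 91.6 CPM in set 1 and 24.6 and 76.2 CPM in set 2.

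Genes of the respiratory chain and of ribosomal proteins lay mostly higher in set 1 in the TMM-scaled values (30 of 34 and 77 of 82). Scaled to the pan-endothelial genes, their set 1 medians were larger. The scaled medians in sets 1 and 2 were 1.26 and 0.25 for the respiratory chain and 1.52 and 0.05 for ribosomal proteins. Those of all genes were 0.89 and 0.10. Of 34 respiratory chain genes 30 were above 0, with a median of 0.27 (0.39 in set 1, 0.15 in set 2, and −0.08 without control 1). Of 82 cytosolic ribosomal protein genes 74 were above 0, with a median of 0.31 (0.66 in set 1, −0.05 in set 2, and −0.01 without deficient 1). Ribosomal protein symbols have processed pseudogenes that could share reads, so these counts are uncertain. Of 25 interferon-stimulated genes, 14 were above 0 and 11 below, with a median of 0.04, close to that of all genes. Isg15, a ubiquitin-like interferon target, had 1321 and 1018 CPM in set 1 and 250 and 597 CPM in set 2.

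The genes called only under other settings were of several kinds. The 14 genes called without deficient 1 (Fbxo11, Cep350, Dpysl3, Tbk1, Ptgs2, Rgs2, Serinc5, Olfr1372-ps1, Itfg1, Igbp1, Zfp609, Btrc, Sec23a and Pnpt1) had 0 to 7 counts in deficient 2, but 51 to 2726 in deficient 1. Ptgs2, the inducible prostaglandin synthase, had 246 and 173 counts in set 1 and 406 and 0 in set 2. Rgs2, a regulator of G-protein signalling, had 601 and 2726 counts in set 1 and 200 and 0 in set 2, and was higher in set 1, so that its log2 fold change was 2.12, and −12.08 without deficient 1. Tbk1, a kinase of innate immunity, had 320 and 168 counts, then 157 and 0. DESeq2's 4 genes were Asic2, Retnla, Pak3 and Hmga2. Asic2, an acid-sensing ion channel, had 72 and 84 counts in the controls and 0 in both deficient libraries, at least 39.2-fold lower, and Pak3 had 15 and 32 against 0, at least 11.8-fold lower. Both bounds cover counting error only and not the spread between libraries. Retnla, a secreted product of activated macrophages, had 590 counts in deficient 1 and 0 in the other 3 libraries. With the block, DESeq2 called Sox7 and Aqp1 lower and 15 genes higher, among them Igf1, Lgals3bp and Cotl1. Some of these had no count of 0 and differed the same way in both sets. Lgals3bp had 523 and 2532 counts in set 1 and 440 and 1079 in set 2. Snx5 had 1464 and 6545 counts, then 248 and 542, but its groups overlapped, with 175 CPM in control 1 and 71.9 CPM in deficient 2.

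The same contrast with Sox17 deleted, on separate controls, was set beside these values to see whether differences belong to Sox7 loss. No gene passed the test of the Sox7 difference minus the Sox17 difference in edgeR (0 of 13040, 0.0%), and 374 (2.87%) had an unadjusted p below 0.05. In Sox7 the log2 fold change was −4.52 after Sox7 loss and 0.65 after Sox17 loss, and in Sox17 it was −0.14 and −5.24. Kcnj2 had −1.62 after Sox7 loss and 1.13 after Sox17 loss, a difference of −2.75 ± 0.71 (SE). Aqp1 had −4.80 and 1.30, a difference of −6.10 ± 1.78 (SE). For Bcl6b the pair was −1.41 and 0.03, for Cyp26b1 −2.31 and −0.15, and for Wnt5a −1.61 and 0.34. Among the higher genes, Itgb5 had 3.45 and −1.13, a difference of 4.58 ± 1.49 (SE), and Mif had 1.81 and 0.55. Cotl1 had 2.78 and 1.05, and Chl1 was higher in all 3 Sox17 sets as well, by 4.57, 2.27 and 2.77 on the log2(CPM + 1) scale. Of the 15 higher genes, 11 were above 0 after Sox17 loss too, against 52.8% of all genes, and of the 15 lower genes 6 were below 0, against 47.1%. For each of these genes the adjusted p of the difference was above 0.05 in edgeR, so none is shown to be particular to Sox7 loss. The venous list had a median of −0.53 after Sox7 loss and 0.41 after Sox17 loss, and the blood-brain barrier list −0.18 and −0.69. The genes were chosen for their Sox7 difference, so a smaller value in the Sox17 arm is a description.

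**Figure D5:**
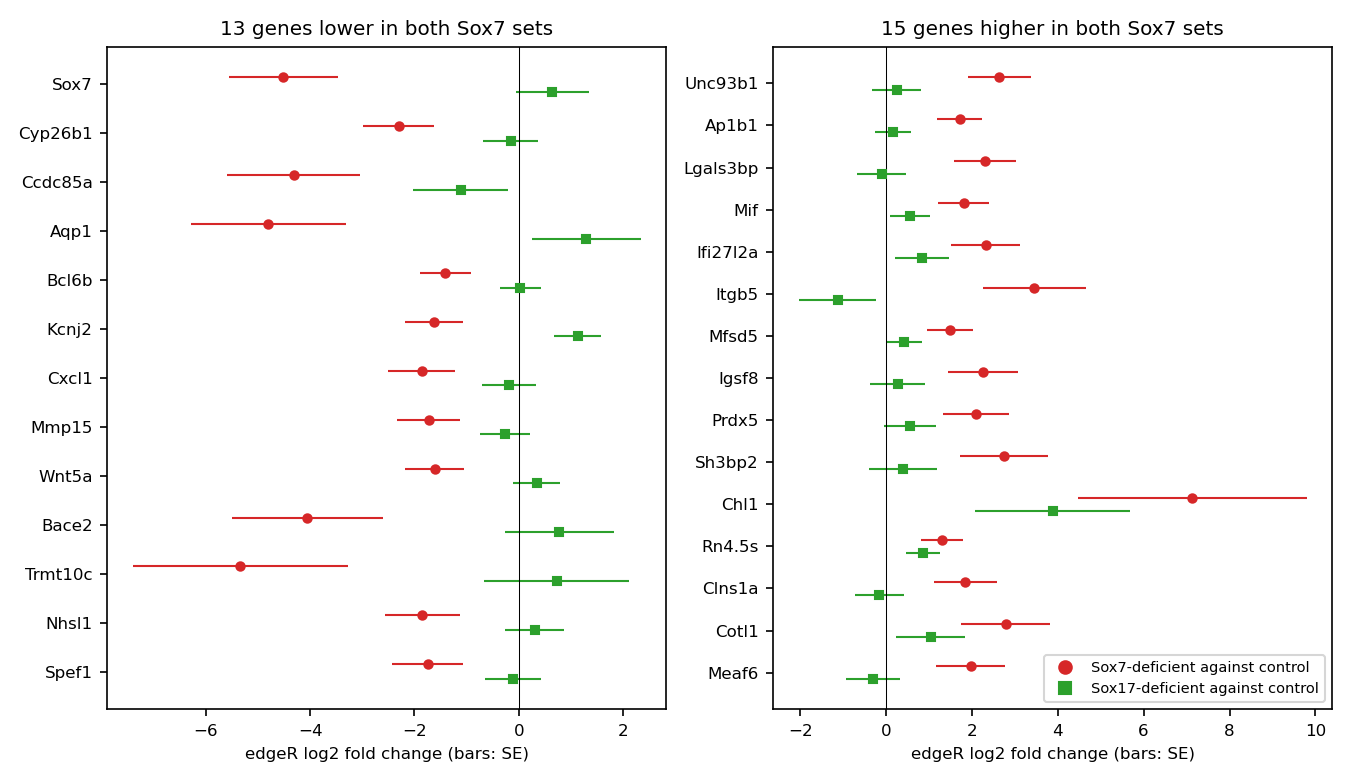
edgeR log2 fold change, with bars for the SE, of the named genes after Sox7 loss (circles, 2 against 2 libraries) and after Sox17 loss (squares, 3 against 3); Mid2 and Xk, at 0 counts in both Sox7-deficient libraries, are left out, and Chl1 rests on 1 count in the Sox7 controls. Most squares lie near 0, and those of several genes, Kcnj2, Aqp1 and Itgb5 among them, lie on the opposite side of it from the circles.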

How the data were processed

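RNA of endothelial cells purified from mouse gliomas was sequenced in 10 libraries, of which the 4 Sox7 libraries are described here. Each library has 1 deposited file of raw counts, in whole numbers, for each gene symbol. Bowtie2, edgeR and mouse build mm10 are named, without role or version, per the submitters' processing notes. Libraries were made with the Lexogen QuantSeq 3′ kit per the labels' protocols, and the counting tool, its strand setting and the annotation are not given in the sources used here. Repeated lines of a symbol (35 symbols) were summed, and 1183 Mir symbols found only in the Sox17 files were left out, so that 23238 symbols entered.

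Counts of all 10 libraries were fitted in R 4.3.3 with edgeR 4.0.16 (quasi-likelihood test, robust, TMM scaling, a mean per group, 6 residual degrees of freedom). The filter filterByExpr removed 10198 symbols and left 13040. P-values were adjusted by the Benjamini-Hochberg method over the 13040 genes, with a threshold of 0.05. The SE of a log2 fold change was its size divided by the square root of F. DESeq2 1.42.0 and limma 3.58.1 (voom) were alternatives, as were a block by set, the 4 Sox7 libraries alone, RLE scaling, no filter, leaving out Rn45s and leaving out each library. The script was tested on simulated data. In the 4 Sox7 libraries total counts of 6781972 to 9699934 set the precision, and floors of 3 counts cover counting error only.

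The set numbers were taken to pair the samples, since both labels of a set share a run label in the Sox7 arm. The main fit did not use this pairing. The deviations of paired libraries from their group means correlated over genes at 0.193 in the Sox7 arm and at 0.0896 to 0.120 in the Sox17 sets. With 2 libraries a group the deviations mirror each other, so 0.193 is necessarily the same for both Sox7 sets. Levels over genes correlated at 0.892 between control 1 and deficient 1. Between control 2 and deficient 2 the value was 0.798, below the 0.839 of control 1 with deficient 2.

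Members and gene lists were chosen with earlier results of these data known. Named genes are the SoxF genes, any gene called, the 15 higher and 15 lower genes of smallest p among those past 1 on the log2(CPM + 1) scale in both sets, and genes called under 3 alternatives. In a described list they are the 3 members of highest control level and the 2 of largest difference shared by both sets, from which a few were taken. Gene positions come from GENCODE vM21 (GRCm38), and promoters from RefSeq (GRCm38.p6). Some genes that the rules select are not reported here.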

Additional observations from a re-analysis of the deposited data

How the results depend on the processing

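Set numbers were taken to pair the libraries. With the replicate block edgeR called 1 gene after Sox7 loss and 3 for the Sox7 difference minus the Sox17 difference, against 0 and 0 without it. Other settings gave 4 and 28 calls (DESeq2), 17 and 40 (DESeq2 with the block) and 58 and 58 (no filter on low counts). With the block the median of the immediate early genes was −0.60, or −0.63 on the Sox7 libraries alone. The log2 fold change of Rgs2 turned to −1.07 with the block, −1.16 with the block on the Sox7 libraries alone, −2.90 in DESeq2 with the block and −2.91 in limma-voom. The cause was not tested. RLE scaling, leaving out Rn45s, limma-voom and the Sox7 libraries alone, with or without the block, gave 0 calls after Sox7 loss.

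The number of genes past 1 in both sets, 405 higher and 319 lower, was 1291 and 60 when scaled to pan-endothelial genes, 176 and 71 with a pseudocount of 5 CPM, and 36 and 9 at a mean CPM of at least 50. These settings were chosen after seeing the data. The last tests fewer genes.

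Leaving out 1 Sox7 library at a time, where the lone library left in a group is assumed to vary like the other groups, gave 0 to 14 calls after Sox7 loss and 0 to 9 for the difference. Medians of lists ranged from −2.10 to 4.81 (macrophages), −0.50 to 3.02 (MHC class II), −0.16 to 2.06 (lysosome), −0.45 to 0.80 (caveolae), −0.94 to 0.17 (barrier transporters), −0.39 to 0.73 (retinoic acid), −0.17 to 0.86 (pericytes) and 0.38 to 1.68 (smooth muscle). They ranged from −0.43 to 0.37 (interferon-stimulated), −0.075 to 0.59 (respiratory chain), −0.0059 to 0.57 (ribosomal), −0.63 to −0.20 (Notch), −0.71 to −0.44 (venous), −0.82 to −0.23 (shear), −0.48 to −0.083 (BMP and TGF-beta), −0.85 to −0.23 (pan-endothelial), −1.02 to −0.21 (arterial), −0.45 to −0.07 (transcription factors), −0.71 to −0.37 (tip cell), −0.68 to −0.27 (basement membrane), −0.68 to −0.16 (junctions), −0.63 to −0.05 (clotting) and −0.69 to −0.31 (immediate early). Single log2 fold changes ranged from −1.71 to 0.59 (Sox17), −2.53 to 1.42 (Sox18), −8.44 to 0.10 (Cep350), −12.08 to 3.38 (Rgs2), −11.44 to 0.36 (Itfg1), −5.57 to 0.43 (Igbp1), −11.07 to 0.26 (Zfp609) and −0.52 to 11.33 (Ms4a6c). Leaving out deficient 1 moved the median of all genes to −0.26, and leaving out control 1 moved it to 0.22. With 2 libraries a group and many genes at 0 in set 2, depth and drop-out limit what can be told apart.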
